A study of Mus musculus with 6 samples.

Results

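The genes described here prepare and load the peptides that MHC class I molecules show on the cell surface. They were picked by their known role and found by identifier: TAP1 (ENSG00000168394), TAP2 (ENSG00000204267), TAPBP (ENSG00000231925), TAPBPL (ENSG00000139192), PSMB8 (ENSG00000204264), PSMB9 (ENSG00000240065), PSMB10 (ENSG00000205220), NLRC5 (ENSG00000140853), ERAP1 (ENSG00000164307) and ERAP2 (ENSG00000164308). All 10 were found among the 62492 identifiers of the deposited table.

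The cells were A375, an established human melanoma line, carrying lentiviral Cas9 with guides against YAE1, against ABCE1, or against LacZ or Luciferase, which these cells lack. Every group thus received the Cas9 vector and passed puromycin selection (10 µg/mL), and RNA was taken 7 days later. There were 2 libraries with YAE1 guides, 2 with ABCE1 guides and 2 with control guides. ABCE1 is an iron-sulfur ATPase that splits ribosomal subunits after translation ends, and YAE1 works with LTO1 to hand it its iron-sulfur cluster. The series title links this complex to nonsense-mediated RNA decay and to a rise of MHC class I on tumour cells, so the comparisons ask whether RNA of the peptide machinery differed with these guides. The labels do not say whether libraries of a group come from separate cultures or guides, nor whether cells were a bulk population or clones. The p-values below therefore measure only the spread between libraries, which may be technical. The organism is labelled as mouse, although the cell type is given as human and the identifiers are human. The genotype field of the second YAE1 and ABCE1 libraries holds a gene name ending in 2, so groups were read from the titles. The rows of ABCE1, YAE1, LTO1, the class I chains and melanoma markers were not analysed here, because only the 10 genes above came with both a name and an identifier. The effect of the guides on their targets and the labelled cell type were thus not checked.

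Class I molecules carry short peptides that are mostly cut from cytosolic proteins by the proteasome. In cells exposed to interferon the catalytic subunits encoded by PSMB8, PSMB9 and PSMB10 replace their constitutive relatives and form the immunoproteasome. A transporter made of TAP1 and TAP2 pumps the peptides into the endoplasmic reticulum, where the aminopeptidases ERAP1 and ERAP2 trim them. Tapasin, encoded by TAPBP, holds empty class I molecules at the transporter and favours tightly bound peptides, and its relative TAPBPL edits peptides away from the transporter. NLRC5 is a transcriptional activator of class I genes and of several genes of this pathway. Melanomas often carry low levels of this machinery, and interferon gamma raises it.

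Levels are given in FPKM, fragments per kilobase of gene model, scaled to the fragments assigned to genes in each library, so genes can be ranked by level. The totals recovered from the FPKM steps were 15713011 to 18399717.5 fragments per library. The 10 genes rested on 36.5 to 1208.5 fragments each per library, a counting error of 16.6% down to 2.88%. Libraries of 1 group correlated at r = 0.992 to 0.994 over log2 values, and libraries of different groups at 0.942 to 0.98. Tests were limma fits on log2(FPKM + 1) over the 12578 genes whose mean reached 1 FPKM, with p-values adjusted over all of them (threshold 0.05). Folds are ratios of mean FPKM. The limma log2 changes include the added 1, so they are smaller than the folds beside them imply, most of all at low levels. Of the 10 genes, 8 passed that filter, and the lowest value of any of them in any library was 1.19 FPKM, so none passed through a high group alone. NLRC5 and ERAP2 lay below it. The samples are bulk RNA, in which more expressing cells and more RNA per cell cannot be told apart.

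The highest single value of any of the 10 genes was 9.19 FPKM, for TAPBP in a YAE1 library. With control guides the order of mean levels was ERAP1, TAPBP, TAP2, PSMB8, TAP1, PSMB10, TAPBPL, PSMB9, ERAP2 and NLRC5, and the only neighbours whose libraries overlapped were TAPBPL and PSMB9. ERAP1, at 6.93 ± 0.211 FPKM (SD, n = 2), stood at the 82.1st percentile of all genes above 0 in the controls, and NLRC5, at 0.428 ± 0.0338 FPKM (SD, n = 2), at the 51.2nd percentile. With YAE1 guides TAPBP, ERAP1 and PSMB8 led and each overlapped with its neighbour, as did NLRC5 and ERAP2 at the low end. With ABCE1 guides TAP1 and ERAP1 led and overlapped with each other, as did PSMB8 with TAPBP, TAPBPL with PSMB10 and with PSMB9, and ERAP2 with NLRC5. TAP1 thus held the first place with ABCE1 guides, the fourth with YAE1 guides and the fifth with control guides. Summed over the 10 genes, the level was 47.3 and 47.2 FPKM with YAE1 guides and 46.1 and 43.3 FPKM with ABCE1 guides, against 31.0 and 31.8 FPKM with control guides.

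**Figure D1:**
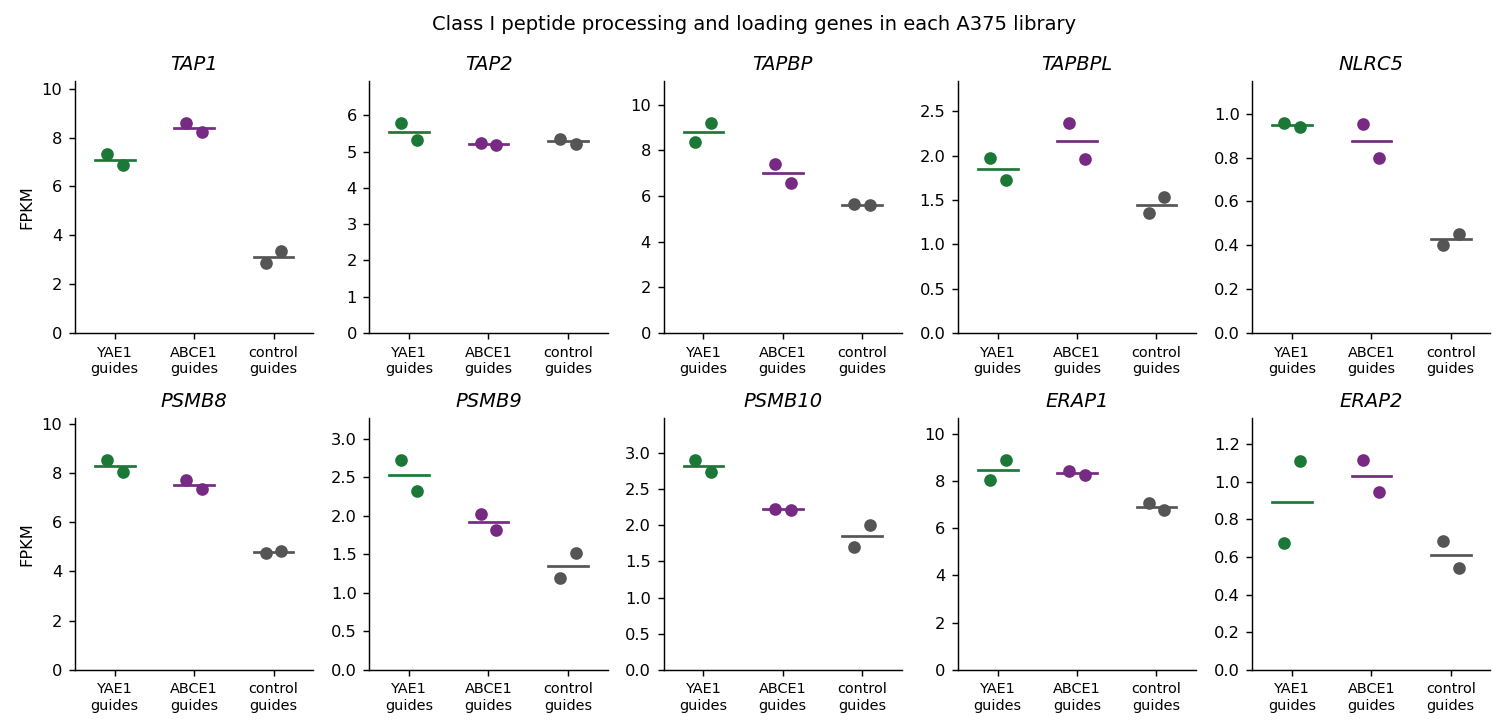
FPKM (vertical axes, each from 0) of the 10 genes in every library, with the guide group on the horizontal axes; points are libraries and lines are means of 2. TAP1, TAPBP, PSMB8, PSMB9 and NLRC5 lie above both controls in all 4 libraries with YAE1 or ABCE1 guides, while the TAP2 groups overlap with the controls.

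Most of the tested genes were higher than in the controls with either set of guides. With YAE1 guides 6 of the 8 tested genes rose (TAP1, TAPBP, PSMB8, PSMB9, PSMB10 and ERAP1), where 34.2% of all tested genes were called higher. With ABCE1 guides 6 of 8 rose as well (TAP1, TAPBP, TAPBPL, PSMB8, PSMB9 and ERAP1), where 37.5% of all tested genes were called higher. In limma 0 of 8 were called lower in either comparison, against 17.6% of all tested genes with YAE1 guides and 20.4% with ABCE1 guides. The count of lower genes was also 0 at an unadjusted p under 0.05, where the share of all tested genes was not counted. It was 0 in voom on recovered fragments too, where 19.1% of all tested genes were lower with YAE1 guides and 21.7% with ABCE1 guides. With quantile normalization 1 gene, TAP2 with ABCE1 guides, was lower at an unadjusted p under 0.05 (-0.16, limma adjusted p = 0.078). The median log2 change of the 8 was 0.49 with YAE1 guides, against 0.10 over all tested genes. For ABCE1 guides the medians were 0.29 and 0.10. Both comparisons use the same 2 control libraries, so their counts are not independent of each other.

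In both YAE1 libraries 7 of the 8 tested genes lay above both controls, as did 49.8% of all tested genes. In both ABCE1 libraries 7 of 8 did, and 50.6% of all tested genes. TAP2 was the exception in each. Counting NLRC5 and ERAP2 too, 8 of 10 lay above both controls with YAE1 guides and 9 of 10 with ABCE1 guides. Among the 14440 genes that averaged 20 fragments or more, a set that holds all 10, the shares were 51.4% with YAE1 guides and 51.5% with ABCE1 guides.

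The share of genes called depended on how libraries were scaled. Centring each library on its median gene moved the median change of all tested genes by -0.10 for YAE1 guides and by -0.14 for ABCE1 guides. It turned the split of all calls to 24.0% higher and 24.8% lower with YAE1 guides, and to 26.0% higher and 31.1% lower with ABCE1 guides. On that scale 5 of the 8 genes rose with YAE1 guides (TAP1, TAPBP, PSMB8, PSMB9 and PSMB10) and 2 with ABCE1 guides (TAP1 and PSMB8). Quantile normalization gave the same 5 and the same 2 genes, where 24.8% of all tested genes were higher with YAE1 guides and 27.3% with ABCE1 guides. The ABCE1 count on both scales was near the share of all tested genes. TAP1 and PSMB8 were called higher in both comparisons under every one of the 15 alternatives run.

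**Figure D2:**
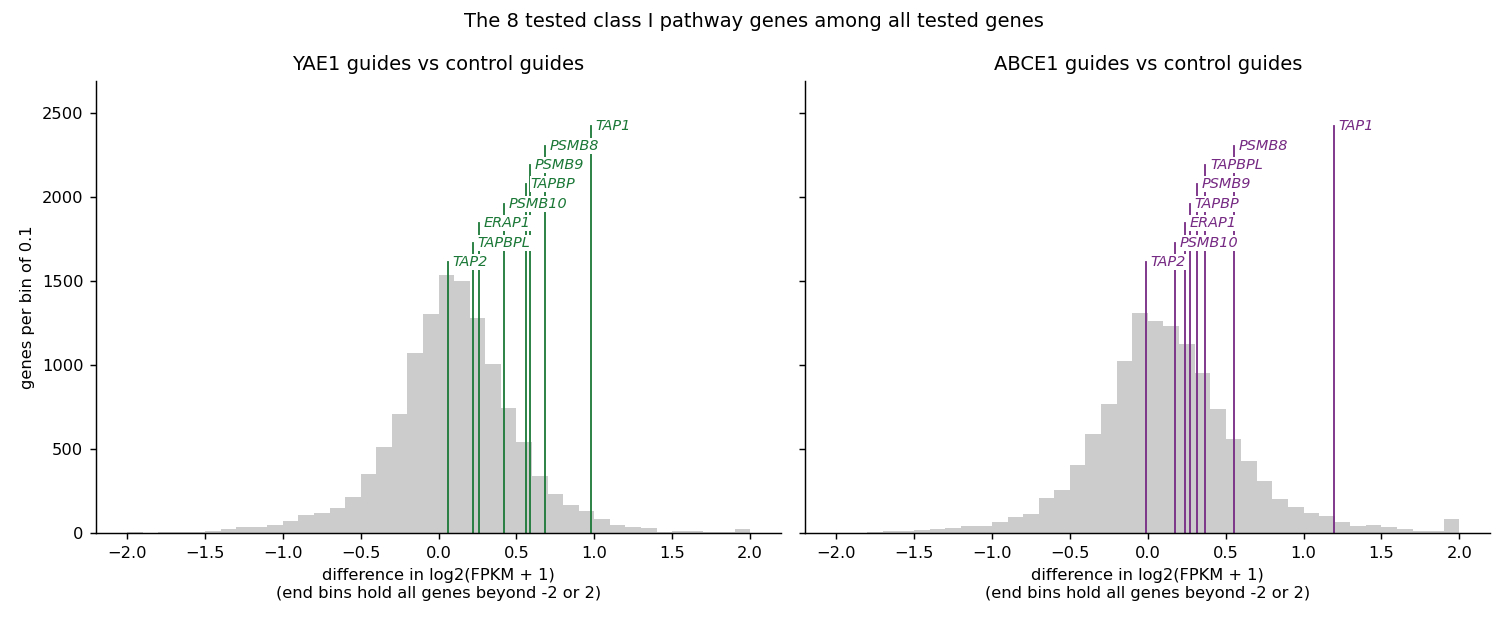
Number of tested genes (vertical axis) by difference in log2(FPKM + 1) from control guides (horizontal axis, bins of 0.1) for YAE1 guides on the left and ABCE1 guides on the right; vertical lines mark the 8 tested genes of the class I pathway. TAP1 lies at the 97.6th percentile of change with YAE1 guides and the 97.3rd with ABCE1 guides, and TAP2 at the 45.6th and 38.5th.

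The transporter genes behaved unlike each other. TAP1, which forms the peptide channel together with TAP2, was at 7.34 and 6.87 FPKM with YAE1 guides and at 8.60 and 8.22 FPKM with ABCE1 guides, against 2.87 and 3.37 FPKM with control guides. All 4 values lay above both controls, and the gap between the nearest libraries was 2.04-fold for YAE1 guides and 2.44-fold for ABCE1 guides. Mean TAP1 rose 2.28-fold with YAE1 guides (log2 change 0.98 ± 0.08 SE, limma adjusted p = 0.00016). With ABCE1 guides it rose 2.70-fold (log2 change 1.19 ± 0.08 SE, limma adjusted p = 5.4e-05). Only 304 of the tested genes had a larger change than TAP1 with YAE1 guides, and 341 with ABCE1 guides.

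TAP2, the partner of TAP1, was at 5.79 and 5.32 FPKM with YAE1 guides and at 5.24 and 5.19 FPKM with ABCE1 guides, against 5.34 and 5.22 FPKM with control guides. The groups overlapped in both comparisons with the controls. TAP2 did not pass the test for YAE1 guides (log2 change 0.06, 95% interval -0.09 to 0.21, limma adjusted p = 0.44). Nor did it for ABCE1 guides (-0.01, 95% interval -0.16 to 0.13, limma adjusted p = 0.86). A change of any size inside those intervals remains possible. After centring, the values were -0.04 for YAE1 guides and -0.15 for ABCE1 guides, and neither passed (limma adjusted p = 0.67 and 0.083).

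The ratio of TAP1 to TAP2 levels within a library was 1.27 and 1.29 with YAE1 guides and 1.64 and 1.58 with ABCE1 guides, against 0.537 and 0.646 with control guides. No library scaling enters this ratio, because both genes come from the same library. The 3 groups did not overlap, and TAP1 exceeded TAP2 in each library with YAE1 or ABCE1 guides and in neither control.

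**Figure D3:**
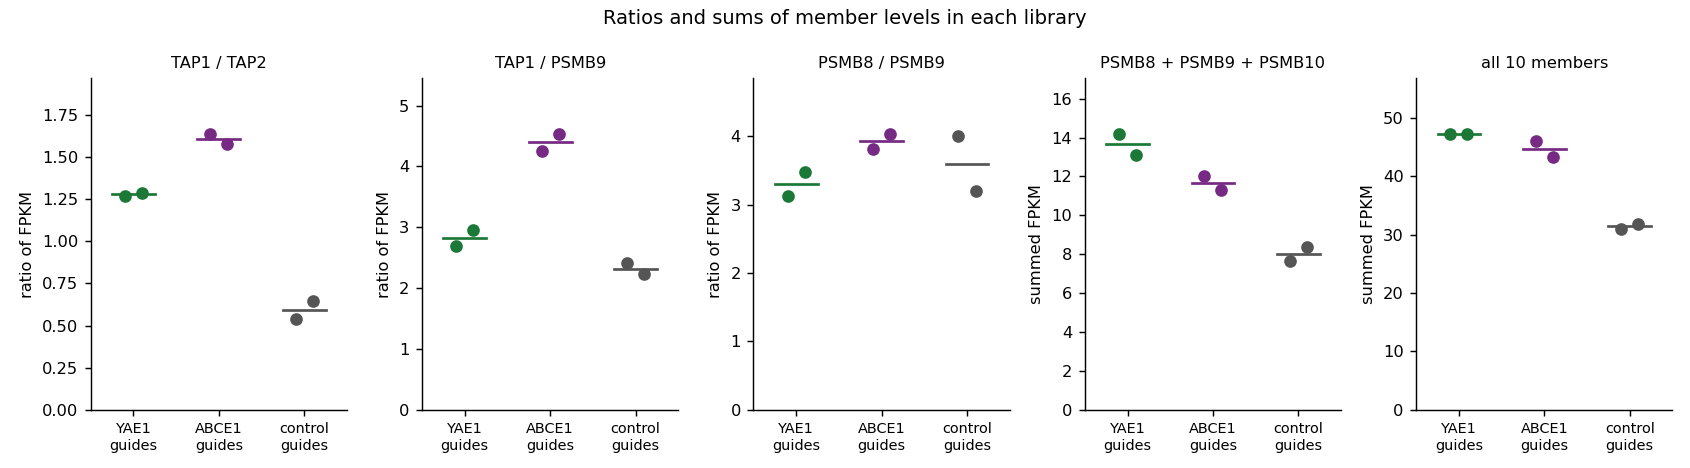
Ratios of FPKM between genes and summed FPKM (vertical axes, each from 0) in every library by guide group (horizontal axes); points are libraries and lines are means of 2. The ratio of TAP1 to TAP2 is above 1 in all libraries with YAE1 or ABCE1 guides and below 1 in both controls, while the ratio of PSMB8 to PSMB9 overlaps with the controls for both YAE1 and ABCE1 guides.

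Among the loading factors, tapasin moved further with YAE1 guides. TAPBP was at 8.36 and 9.19 FPKM with YAE1 guides and at 7.40 and 6.58 FPKM with ABCE1 guides, against 5.65 and 5.59 FPKM with control guides. The 3 groups did not overlap. TAPBP rose 1.56-fold with YAE1 guides (log2 change 0.56 ± 0.07 SE, limma adjusted p = 0.0011), and this call held under every alternative run. With ABCE1 guides it rose 1.24-fold (log2 change 0.27 ± 0.07 SE, limma adjusted p = 0.018). That second call was lost in several settings. It was lost on leaving out the first control (0.28, adjusted p = 0.068), the second control (0.26, adjusted p = 0.076) or the first ABCE1 library (0.20, adjusted p = 0.11), and on centring (0.13, adjusted p = 0.16).

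TAPBPL, the tapasin relative, was at 1.98 and 1.72 FPKM with YAE1 guides and at 2.37 and 1.96 FPKM with ABCE1 guides, against 1.36 and 1.53 FPKM with control guides. Both groups lay above the controls, with the widest margin in the first ABCE1 library. It rose 1.5-fold with ABCE1 guides (log2 change 0.37 ± 0.10 SE, limma adjusted p = 0.021), which no longer passed without the first control (0.32, adjusted p = 0.10), without the first ABCE1 library (0.28, adjusted p = 0.12) and on centring (0.23, adjusted p = 0.10). With YAE1 guides the mean was 1.28 times that of the controls and did not pass (0.22, 95% interval -0.03 to 0.47, limma adjusted p = 0.12).

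The immunoproteasome genes were led by PSMB8, which was at 8.54 and 8.06 FPKM with YAE1 guides and at 7.72 and 7.33 FPKM with ABCE1 guides, against 4.76 and 4.84 FPKM with control guides. The groups did not overlap, and libraries of 1 group differed by at most 1.06-fold. PSMB8 rose 1.73-fold with YAE1 guides (log2 change 0.68 ± 0.06 SE, limma adjusted p = 0.00022). It rose 1.57-fold with ABCE1 guides (log2 change 0.56 ± 0.06 SE, limma adjusted p = 0.00032).

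PSMB9, whose gene lies head to head with TAP1 on a shared promoter in human cells, was at 2.73 and 2.32 FPKM with YAE1 guides and at 2.02 and 1.81 FPKM with ABCE1 guides, against 1.19 and 1.51 FPKM with control guides. These values rest on few fragments, 76.5 and 66 with YAE1 guides, 53 and 53.5 with ABCE1 guides, and 36.5 and 44.5 with control guides. PSMB9 rose 1.87-fold with YAE1 guides (log2 change 0.58 ± 0.11 SE, limma adjusted p = 0.0047). With ABCE1 guides it rose 1.42-fold and passed narrowly (0.31 ± 0.11 SE, limma adjusted p = 0.044). That call was lost with voom (adjusted p = 0.073), with the replicate number as a block (adjusted p = 0.067), on centring (0.17, adjusted p = 0.22), without the first control (0.21, adjusted p = 0.21), and without the first (0.26, adjusted p = 0.18) or second ABCE1 library (0.37, adjusted p = 0.079). The ratio of TAP1 to PSMB9 was 2.69 and 2.96 with YAE1 guides and 4.25 and 4.54 with ABCE1 guides, against 2.41 and 2.23 with control guides. The ABCE1 libraries lay apart from the other 4, while the margin between the YAE1 and control libraries, 2.69 against 2.41, was smaller than the counting error of PSMB9 in the controls (15.0% and 16.6%).

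PSMB10, the third inducible subunit, was at 2.91 and 2.74 FPKM with YAE1 guides and at 2.23 and 2.21 FPKM with ABCE1 guides, against 1.70 and 2.01 FPKM with control guides. The lower ABCE1 library lay 1.10-fold above the higher control. PSMB10 rose 1.52-fold with YAE1 guides (log2 change 0.42 ± 0.09 SE, limma adjusted p = 0.0065). With ABCE1 guides it did not pass (0.17, 95% interval -0.03 to 0.38, limma adjusted p = 0.12), and with quantile normalization its value was -0.004. Summed over the 3 subunits, the level was 14.2 and 13.1 FPKM with YAE1 guides and 12.0 and 11.3 FPKM with ABCE1 guides, against 7.65 and 8.36 FPKM with control guides. PSMB8 made up 57.9% to 64.6% of that sum in every library. Its share was 60.2% and 61.4% with YAE1 guides, 64.5% and 64.6% with ABCE1 guides, and 62.2% and 57.9% with control guides. The ratio of PSMB8 to PSMB9 overlapped with the controls in both comparisons. That ratio was 3.13 and 3.48 with YAE1 guides and 3.82 and 4.04 with ABCE1 guides, which did not overlap with each other, against 4.0 and 3.2 with control guides. The margin between the YAE1 and ABCE1 libraries, 3.48 against 3.82, was smaller than the counting error of PSMB9 there (11.4% to 13.7%). PSMB8 to PSMB10 was 2.94 in both YAE1 libraries, 3.46 and 3.32 with ABCE1 guides, and 2.79 and 2.41 with control guides. PSMB9 to PSMB10 was 0.937 and 0.846 with YAE1 guides, 0.906 and 0.821 with ABCE1 guides, and 0.697 and 0.754 with control guides. Neither overlapped with the controls, but the nearest margins (2.94 against 2.79, 0.821 against 0.754) were below the PSMB10 counting error in the controls (13.2% and 14%).

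**Figure D4:**
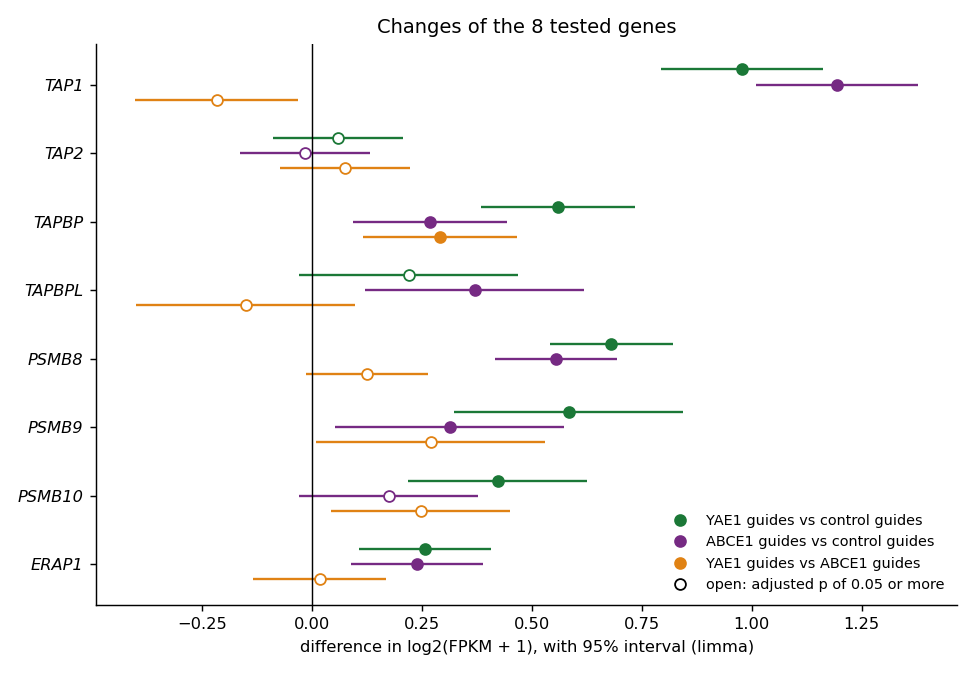
Difference in log2(FPKM + 1) with its 95% interval (horizontal axis, limma) for the 8 tested genes (vertical axis) in the 3 comparisons; filled points passed the threshold of 0.05 after adjustment. TAP1 has the largest change from control guides in both comparisons, and in the direct comparison of YAE1 with ABCE1 guides TAPBP alone is filled.

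Of the trimming enzymes, ERAP1 was at 8.06 and 8.91 FPKM with YAE1 guides and at 8.44 and 8.27 FPKM with ABCE1 guides, against 7.08 and 6.78 FPKM with control guides. All 4 values lay above the controls, with 1.14-fold between the nearest libraries for YAE1 guides and 1.17-fold for ABCE1 guides. ERAP1 rose 1.22-fold with YAE1 guides (log2 change 0.26 ± 0.06 SE, limma adjusted p = 0.014) and 1.21-fold with ABCE1 guides (0.24 ± 0.06 SE, limma adjusted p = 0.016). The YAE1 call was lost without the second control (0.23), on centring (0.16, limma adjusted p = 0.067) and with quantile normalization (0.17, limma adjusted p = 0.053). The ABCE1 call was lost without the second control (0.21) and without the first (0.23) or second ABCE1 library (0.25). It was also lost on centring (0.10, limma adjusted p = 0.20) and with quantile normalization (0.12, limma adjusted p = 0.13).

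ERAP2 was at 0.676 and 1.11 FPKM with YAE1 guides and at 1.12 and 0.943 FPKM with ABCE1 guides, against 0.684 and 0.539 FPKM with control guides. The YAE1 libraries were split, the first level with the higher control and the second level with the ABCE1 libraries, a 1.65-fold gap that was the widest within any group of the 10 genes. Its mean of 0.845 FPKM lay under the filter, so ERAP2 was tested with no filter and in voom on recovered fragments. With no filter it did not pass for YAE1 guides (0.23, limma adjusted p = 0.45) or ABCE1 guides (0.33, limma adjusted p = 0.23).

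NLRC5, the class I transactivator, was the lowest of the 10 with control guides. It was at 0.958 and 0.939 FPKM with YAE1 guides and at 0.956 and 0.799 FPKM with ABCE1 guides, against 0.404 and 0.451 FPKM with control guides. All 4 values lay above both controls, and the nearest libraries were 2.08-fold apart for YAE1 guides and 1.77-fold apart for ABCE1 guides. Mean NLRC5 was 2.22 times the control mean with YAE1 guides and 2.05 times with ABCE1 guides, ratios second to TAP1 among the 10 genes. Its gene model is long, so the low FPKM still rested on 199.5 and 198.5 fragments with YAE1 guides and 186 and 175 with ABCE1 guides, against 92 and 98.5 with control guides.

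A log2(FPKM + 1) scale understates changes, most of all for genes this low. With no filter on that scale NLRC5 rose with YAE1 guides (0.45, limma adjusted p = 0.048), where 8.82% of 38269 genes were called higher. It just missed with ABCE1 guides (0.39, limma adjusted p = 0.056), where 12.5% were. A further test, chosen after these values were seen, ran voom and limma on the recovered fragments of 14440 genes that averaged 20 fragments or more, among them all 10 described here. There NLRC5 rose with YAE1 guides (log2 change 1.15 ± 0.15 SE, voom adjusted p = 9.5e-06) and with ABCE1 guides (1.02 ± 0.15 SE, voom adjusted p = 2.6e-05), and both calls held without any single library. ERAP2 rose with ABCE1 guides (0.74 ± 0.22 SE, voom adjusted p = 0.0082). That call was lost without the second control (0.58, adjusted p = 0.085) or the first ABCE1 library (0.63, adjusted p = 0.064). With YAE1 guides ERAP2 did not pass (0.51, voom adjusted p = 0.068), but did without the first YAE1 library (0.87, adjusted p = 0.0022), and its value was 0.15 without the second (adjusted p = 0.62). In this test 7 of the 10 genes rose with YAE1 guides, where 37.8% of genes were called higher, and 7 of 10 with ABCE1 guides, where 39.9% were.

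**Figure D5:**
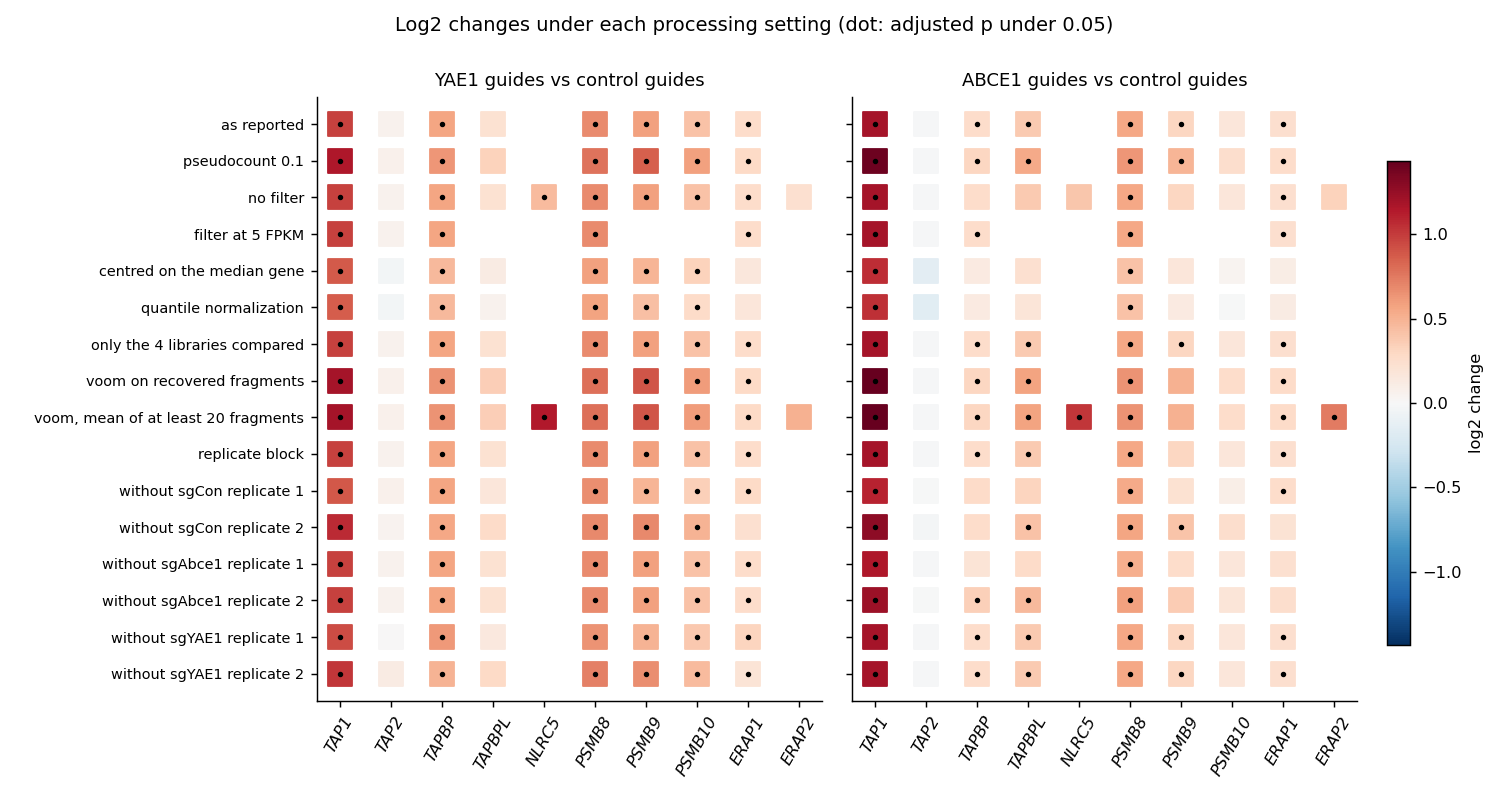
Log2 change from control guides (colour) of the 10 genes (horizontal axis) as reported and under each of 15 processing alternatives (vertical axis), with YAE1 guides on the left and ABCE1 guides on the right; dots mark an adjusted p under 0.05 and empty places a gene that the setting did not test. TAP1 and PSMB8 carry a dot in every setting of both panels, while TAPBP, PSMB9, PSMB10 and NLRC5 do so with YAE1 guides only, in each setting that tested them.

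The direct comparison of YAE1 with ABCE1 guides asked whether the YAE1 and ABCE1 libraries differed. TAPBP was the only one of the 8 tested genes called, where 15.3% of all tested genes were higher with YAE1 guides. It was 1.26-fold higher with YAE1 guides (log2 difference 0.29 ± 0.07 SE, limma adjusted p = 0.024). The call was lost without the second ABCE1 library (0.22, adjusted p = 0.12), without the second YAE1 library (0.23, adjusted p = 0.085) and with no filter (adjusted p = 0.090). In limma 0 of 8 genes were lower with YAE1 guides, against 18.7% of all tested genes. At an unadjusted p under 0.05 there was 1 such gene, TAP1, and 3 genes were higher, TAPBP, PSMB9 and PSMB10. The share of all tested genes at an unadjusted p was not counted. Voom also called 1 gene lower, where 22.1% of all tested genes were lower.

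TAP1 and TAPBPL had lower means with YAE1 guides. Mean TAP1 with YAE1 guides was 0.845 times that with ABCE1 guides and the libraries did not overlap, but the difference did not pass in limma (-0.22, 95% interval -0.40 to -0.03, adjusted p = 0.072). Voom on recovered fragments called it lower with YAE1 guides (-0.24, adjusted p = 0.029). The TAPBPL libraries overlapped and the difference did not pass (-0.15, limma adjusted p = 0.30). PSMB8, PSMB9, PSMB10 and TAP2 were each higher in both YAE1 libraries than in both ABCE1 libraries. Their log2 differences were 0.13, 0.27, 0.25 and 0.07, and none passed (limma adjusted p = 0.14, 0.099, 0.064 and 0.38). How many of all tested genes lay apart in this way was not counted. PSMB10 passed after centring (0.29, adjusted p = 0.042). TAP2, TAPBPL, ERAP1 and NLRC5 did not pass in any fit that tested them. ERAP2 came to the threshold in 1 fit, voom without the second YAE1 library (-0.59, adjusted p = 0.05), and its value was -0.23 with all libraries (adjusted p = 0.39). For ERAP1 the difference was 0.02 (95% interval -0.13 to 0.17).

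Likeness between genes was measured as the root mean square difference of log2(FPKM + 1) over the 6 libraries, after centring each gene on its mean. The closest pair of the 8 was PSMB9 and PSMB10, at 0.083, but 92 other tested genes lay nearer to PSMB9 and 400 nearer to PSMB10. Within the 8, the nearest to TAPBP was PSMB10 (0.10, 308 tested genes nearer) and the nearest to PSMB8 was PSMB9 (0.116, 552 nearer). TAPBPL and ERAP1 were nearest to each other (0.123), with 1849 tested genes nearer to TAPBPL and 2772 nearer to ERAP1. The nearest to TAP2 was ERAP1 (0.128, 3820 nearer). TAP1 stood furthest from the rest, with PSMB8 nearest at 0.265 and 962 tested genes nearer. Across the whole tested table, the genes nearest to the mean profile of the 8 were ENSG00000109079 (0.022) and ENSG00000111335 (0.024), which the tables used here do not name. ENSG00000109079 was at 26.9 and 25.0 FPKM with YAE1 guides and at 25.3 and 24.4 FPKM with ABCE1 guides, against 18.0 and 18.9 FPKM with control guides. ENSG00000111335 was at 1.28 FPKM in both YAE1 libraries and at 1.18 and 1.10 FPKM with ABCE1 guides, against 0.547 and 0.671 FPKM with control guides. With 3 groups of 2 libraries such likeness mostly restates the group means, and it is given as a description.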

How the data were processed

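RNA of 6 A375 libraries (1 µg each) was sequenced as strand-specific 150 bp pairs, per the labels' protocols. The authors deposited 1 table of FPKM values per gene and library; the submitters' processing notes name the human build GRCh37, while no aligner, counter, strand setting or annotation release is stated there or in the labels (not given in the sources used here). Antisense or overlapping transcripts can therefore not be separated. The reference tables are for mouse and matched 0 of the 62492 identifiers, so the 8 symbol lists of related genes (55 names) and the marker genes were not used, and no sequence or position is printed.

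Low FPKM values are whole multiples of a step, which gave the library totals and the fragments per gene, in units of 0.5 fragments, for 38268 of 38269 genes above 0 (tolerance 0.001 fragments; 53% of values were whole). They summed to at least 99.43% of the totals. Differences were tested with limma 3.58.1 in R 4.3.3 on log2(FPKM + 1), fitting group means to all 6 libraries at once, with a trended eBayes and Benjamini-Hochberg adjustment over all genes kept (mean of at least 1 FPKM). The fit and the recovery were tested on simulated data. Every one of the 10 genes is named. The genes, lists and tests were chosen with earlier results of these data known.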

Additional observations from a re-analysis of the deposited data

Results flagged for a closer look

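TAPBP differed between the YAE1 and ABCE1 guides in a direct test. Its log2(FPKM + 1) was higher by 0.292 with YAE1 guides than with ABCE1 guides (limma adjusted p = 0.024). It was the only gene called of the 8 tested here, where 15.3% of all tested genes were called higher and 18.7% lower. Both YAE1 libraries lay above both ABCE1 libraries, but the share of all tested genes that did so was not counted. Over the 15 alternatives the difference ranged from 0.219 to 0.366 and missed the threshold in 3 of them, with an adjusted p of 0.0046 to 0.12. With 2 libraries a group, outlying samples could not be tested for.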

How the results depend on the processing

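With ABCE1 guides 6 of 8 genes were higher, where 37.5% of all tested genes were. That became 3 of 10 with no filter (12.5% of all genes), 2 of 8 on centring (26.0%) and 2 of 8 with quantile normalization (27.3%). On the last 2 scales the count was thus near the share of all tested genes. Calls were also lost when single libraries were left out. The YAE1 count was 6 of 8 as reported (34.2% of all tested genes) and 4 of 5 with 5 FPKM required (37.2%). On centring (24.0%) and with quantile normalization (24.8%) 5 of 8 were higher. It was 7 of 10 with no filter (8.82%) and in voom on genes that averaged 20 fragments or more (37.8%). In the direct comparison 1 of 8 was higher (15.3% of all tested genes). That became 0 of 10 with no filter (2.37%), 2 of 8 on centring (19.0%) and 2 of 8 with quantile normalization (18.6%). Without some single libraries the higher call was lost. In both voom fits the 0 lower genes became 1, where 22.1% and 21.0% of all genes were lower. Signs turned for these values, none of which had passed: PSMB10 with ABCE1 guides (-0.00424 with quantile normalization), TAP2 with YAE1 guides (-0.0367 on centring, -0.0426 with quantile normalization) and, between YAE1 and ABCE1 guides, ERAP1 (-0.0469 to 0.0833 without single libraries), NLRC5 (0.125 in voom, -0.0114 without the second ABCE1 library) and ERAP2 (-0.233 in voom, 0.122 without the first YAE1 library). The cause of these shifts was not tested. With no filter both the eBayes fit and the adjustment ran over 38269 genes. A replicate block gave 5 of 8 higher genes with ABCE1 guides (PSMB9 was lost), where 36.4% of all tested genes were higher. With YAE1 guides it gave 6 of 8, where 32.8% were. The labels do not say whether same-numbered libraries belong together, and their deviations were hardly correlated between groups (-0.053 to -0.009). Over all genes, the direct comparison had 1928 higher and 2351 lower calls, and 907 and 1184 with no filter, 835 and 976 without the first ABCE1 library, and 919 and 1044 without the second. Requiring 5 FPKM left 7047 genes to test, of which 2845 (40.4%) were higher and 1916 (27.2%) lower with ABCE1 guides, and 2621 (37.2%) higher with YAE1 guides. Where a library is left out, 1 library stands for its group and is assumed to vary like the others. Depth limits PSMB9 and PSMB10 most (counting errors up to 16.6%).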
